A study of Mus musculus with 6 samples.

Results

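The transcripts of 10 genes of glucose uptake and glycolysis, *Slc2a1*, *Hk2*, *Gpi1*, *Pfkl*, *Aldoa*, *Tpi1*, *Pgk1*, *Eno1*, *Pkm* and *Ldha*, were examined in early large pre-B cells of the mouse. They were chosen by name as the steps that carry glucose into the cell and on to lactate, and each symbol was matched through its Entrez ID to 1 row, giving 10 of the 13426 rows of the table. RNA had been sequenced from cells sorted from the bone marrow of adult mice on a C57BL/6 background, with 3 libraries of Upf1 Flox/Flox Mb1 Cre/+ mice (Upf1-cKO) and 3 of Upf1 Flox/Flox Mb1 +/+ mice (Ctrl). Both groups carry *Upf1* alleles with internal exons between loxP sites, and the Cre is expressed from the *Cd79a* (Mb1) locus, so that deletion is directed to the B lineage. Ctrl mice carry no Cre, so the Cre and the altered *Cd79a* allele cannot be told apart here from the loss of *Upf1*. UPF1 is an RNA helicase of nonsense-mediated mRNA decay, and the comparison asks how transcripts of this stage differ when it is removed.

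Glycolysis converts glucose to pyruvate in the cytosol and yields ATP, NADH and precursors for nucleotides, amino acids and lipids. Lactate dehydrogenase then reduces pyruvate to lactate, which returns NAD+ to the pathway, and monocarboxylate transporters carry the lactate out. Large pre-B cells proliferate, and proliferating lymphocytes are known for high glucose uptake, with MYC and HIF1 as well studied activators of these genes.

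All values are normalised reads, the authors' scaled reads per 1e6 reads of effective library size, and a log2 fold change is that of the cKO-labelled against the Ctrl libraries on log2(value + 1). A gene was called lower or higher at an adjusted p below 0.05. The libraries held between 9732498 and 11006834 reads. The label was checked against B lineage genes. The surrogate light chain gene *Igll1* lay between 285 and 324 in every library, and the B lineage transcription factor genes *Ebf1* and *Pax5* between 363 and 478 and between 209 and 256. Of the markers of stage, *Kit* was higher (log2 fold change 2.07) and *Il2ra* and *Cd2* were lower (-2.42 and -1.21) in cKO-labelled libraries, so these moved with the groups although the sort took CD43+ cells without CD2 at the surface. *Cd79a*, the locus that carries the Cre, was lower (log2 fold change -1.58). *Upf1* itself had 260, 203 and 259 normalised reads in Ctrl libraries 1, 2 and 3 and 308, 283 and 299.7 in the libraries labelled Upf1-cKO, and was called higher (log2 fold change 0.31, adjusted p 0.00696) rather than lower. The row counts the gene as a whole and cannot show the loss of single exons, so the directions given are those of the libraries as labelled. The defining T cell genes *Cd3e*, *Cd4* and *Cd8a* and the globin genes had no row, whereas the summed level of 12 neutrophil genes was 136 in Ctrl library 1, 23.7 in Ctrl library 2, 16.4 in Ctrl library 3 and 359 or more in each of the cKO-labelled libraries. Other marker lists differed less or were low, with summed levels in Ctrl and cKO-labelled libraries of 63.0 to 98.1 and 83.9 to 112 for macrophages, 72.1 to 88.5 and 52.7 to 66.0 for plasma cells, 20.6 to 25.2 and 13.9 to 19.1 for erythroid cells, and 13.0 to 13.8 and 50.8 to 53.6 for dendritic cells, the last mostly *Flt3* and *Bst2*. Of 9 T and NK cell genes 1 had a row. Per the methods the sort excluded lineage-positive cells, CD11b+ cells among them. *Itgam*, which encodes CD11b, was lower in cKO-labelled libraries (-0.42, adjusted p 0.0199, not called under scaling to total reads), although its groups overlapped. *Lyz2*, of the same macrophage list, was higher (log2 fold change 0.76, limma adjusted p 0.0203), with all cKO-labelled libraries above all Ctrl libraries. In that list 1 gene was lower, 1 higher and 4 were not called. The part of stage or of RNA from other cells in the values below was not tested, and in bulk RNA a smaller share of a cell type and less RNA per cell cannot be told apart. The methods call replicates biological, but neither they nor the labels tie each library to a mouse or a pool of mice, and p-values measure the spread between these libraries.

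In cKO-labelled libraries, 9 of the 10 transcripts fell, from the glucose transporter to lactate dehydrogenase, and none rose (limma, 0 higher at an adjusted p below 0.05, 0 higher at an unadjusted p below 0.05, and 0 higher with edgeR and with DESeq2). Over all rows 52.7% were called, 25.0% lower and 27.7% higher, and on the recovered reads edgeR called 24.9% lower and 27.2% higher and DESeq2 24.4% and 24.7%. The median log2 fold change of the 10 transcripts was -0.49, beside 0.01 over all rows. In the same 9 genes all 3 cKO-labelled libraries lay below all 3 Ctrl libraries, which held for 28.0% of all rows, and the reverse order for 30.9%. *Hk2*, the exception, was not called and its groups overlapped. The summed level of the 10 transcripts was 1919, 2622 and 2210 in Ctrl libraries and 1454, 1499 and 1435 in cKO-labelled libraries. Ctrl libraries were the more variable, with library 2 the highest of its group in 9 of the 10 genes and library 1 the lowest in 8, and their SD exceeded that of the cKO-labelled libraries in every gene but *Slc2a1*.

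**Figure D1:**
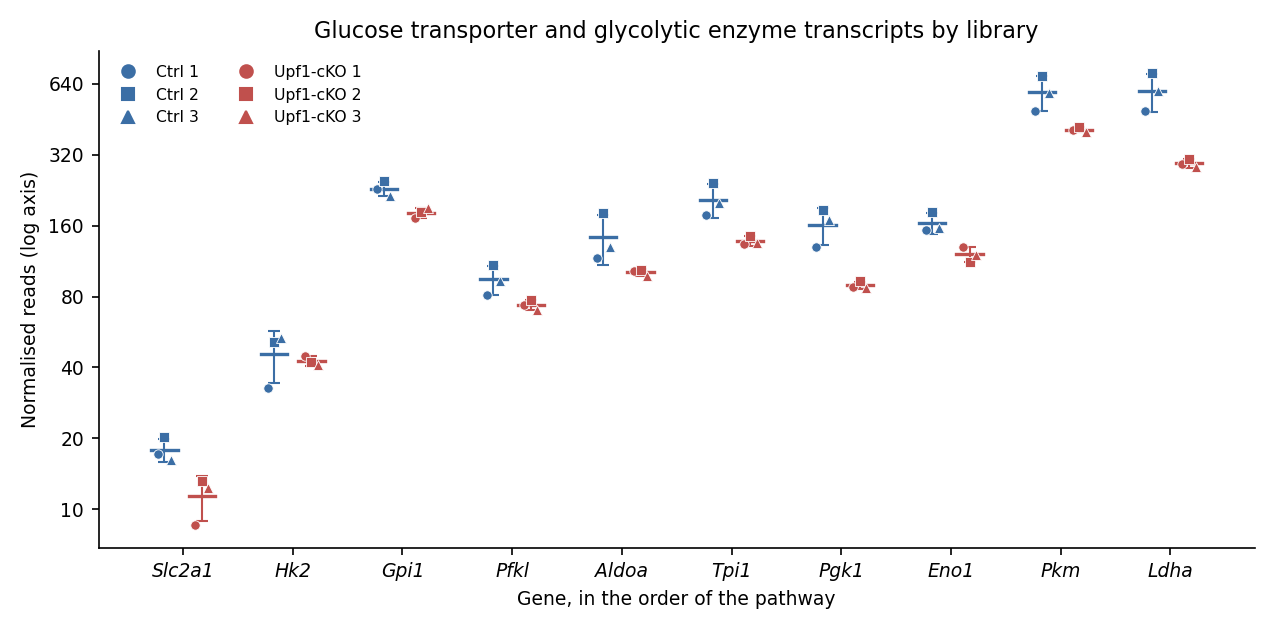
Normalised reads (log axis) of the 10 transcripts in pathway order, with Ctrl libraries in blue and cKO-labelled libraries in red. Horizontal bars are group means and error bars are SD (n = 3 each). The red points lie below the blue points in 9 genes, and those of *Hk2* overlap.

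The windows upstream of 4 of these genes are shown because they bracket the responses, *Ldha* and *Pgk1* with the largest falls, *Hk2* with none called, and *Slc2a1* at the entry of the pathway. Each is the 250 bases before a start annotated by RefSeq on GRCm38.p6, printed on the strand of the gene. Capitals mark CACGTG (the E-box that MYC and MAX bind), ACGTG and GCGTG (core letters of HIF1 sites), searched on both strands, so that CACGT and CACGC are their reverse complements. CACGTG holds ACGTG on each strand.
*Ldha*, chr7:46845554-46845803, plus strand: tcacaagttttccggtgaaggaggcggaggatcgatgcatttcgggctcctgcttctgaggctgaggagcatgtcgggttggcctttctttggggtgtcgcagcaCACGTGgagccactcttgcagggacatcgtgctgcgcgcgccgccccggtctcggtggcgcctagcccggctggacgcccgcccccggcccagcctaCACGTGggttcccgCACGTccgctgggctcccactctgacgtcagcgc
*Pgk1*, chrX:106186850-106187099, plus strand: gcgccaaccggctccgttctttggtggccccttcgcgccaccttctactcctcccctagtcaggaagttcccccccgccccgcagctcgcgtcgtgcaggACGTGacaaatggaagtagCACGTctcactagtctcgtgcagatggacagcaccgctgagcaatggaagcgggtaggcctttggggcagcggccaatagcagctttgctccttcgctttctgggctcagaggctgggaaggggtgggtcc
*Hk2*, chr6:82774455-82774704, minus strand: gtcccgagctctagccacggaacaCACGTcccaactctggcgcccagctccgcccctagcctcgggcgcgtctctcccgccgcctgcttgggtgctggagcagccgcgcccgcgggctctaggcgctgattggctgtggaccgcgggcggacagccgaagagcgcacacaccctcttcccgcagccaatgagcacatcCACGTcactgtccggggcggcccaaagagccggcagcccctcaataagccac
*Slc2a1*, chr4:119108495-119108744, plus strand: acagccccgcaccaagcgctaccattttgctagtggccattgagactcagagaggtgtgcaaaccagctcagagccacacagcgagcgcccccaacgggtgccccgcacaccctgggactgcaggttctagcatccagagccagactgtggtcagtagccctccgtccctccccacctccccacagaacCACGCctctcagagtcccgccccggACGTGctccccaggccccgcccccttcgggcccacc
All 10 genes were found among the RefSeq windows, with 16 windows between them. CACGTG was present in 1 of the 10 genes, *Ldha*, which held it at 2 places in the window shown, and in 9.86% of the 10193 genes of the table that had a window, a share close to that of the 10 genes. Over all 32851 windows of the same length it was 6.02%. ACGTG was present in 6 of the 10 genes (*Slc2a1*, *Hk2*, *Aldoa*, *Pgk1*, *Pkm* and *Ldha*) and in 24.9% of those table genes. *Hk2* and *Pgk1* each held ACGTG at 2 places. GCGTG was found in 4 of the 10 genes, against 49.0% of table genes, and GGGCGG, the GC box bound by SP1, in 9 of the 10, against 62.2%. These matches describe letters in the windows and were not set against the fold changes by any test.

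Uptake and the hexokinase step opened the pathway. *Slc2a1* (Entrez ID 20525, chromosome 4, 119108745 to 119137330), which encodes the glucose transporter GLUT1, had 17.2, 20.2 and 16.2 normalised reads in Ctrl libraries and 8.54, 13.2 and 12.3 in cKO-labelled libraries. The groups did not overlap, and the means of 17.8 ± 2.05 and 11.3 ± 2.47 (SD, n = 3 each) differed by -0.63 on the log2 scale (SE 0.161), at an adjusted p of 0.00307. It was the lowest of the 10 transcripts, with 87 to 199 reads per library. *Hk2* (Entrez ID 15277, chromosome 6, 82725025 to 82774454), the inducible hexokinase that binds mitochondria and traps glucose as glucose 6-phosphate, had 32.8, 51.3 and 53.2 in Ctrl and 44.8, 42.0 and 40.8 in cKO-labelled libraries. Ctrl library 1 lay below every other library and the remaining Ctrl libraries above all others. The log2 fold change was -0.07, with a 95% interval of -0.40 to 0.25 and an adjusted p of 0.714, an interval that holds 0 as well as the log2 fold changes of *Gpi1* and *Pfkl* given below. Without Ctrl library 1, *Hk2* was called lower as well (log2 fold change -0.29, adjusted p 0.0189).

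The steps from glucose 6-phosphate to the triose phosphates included the smallest of the falls, those of *Gpi1* and *Pfkl*. *Gpi1* (Entrez ID 14751, chromosome 7, 34201327 to 34230336), glucose 6-phosphate isomerase, had 228, 247 and 214 in Ctrl and 172, 183 and 190 in cKO-labelled libraries. The isomerase differed by -0.34 on the log2 scale (SE 0.0779), at an adjusted p of 0.00137. *Pfkl* (Entrez ID 18641, chromosome 10, 77986947 to 78009807), the liver-type phosphofructokinase of the first committed step, had 81.5, 109 and 93.3 in Ctrl and 73.9, 77.0 and 70.0 in cKO-labelled libraries. The gap between its groups was narrow, and the difference was -0.35 on the log2 scale (SE 0.0982), at an adjusted p of 0.00624. *Aldoa* (Entrez ID 11674, chromosome 7, 126795234 to 126800994), which splits fructose 1,6-bisphosphate, had 117, 182 and 129.8 in Ctrl and 103, 104 and 97.7 in cKO-labelled libraries. Ctrl library 2 stood apart there, and the difference of -0.46 on the log2 scale (SE 0.132), at an adjusted p of 0.0110, became -0.28 without it. *Tpi1* (Entrez ID 21991, chromosome 6, 124810586 to 124814158), which interconverts the triose phosphates, had 177, 243 and 199 in Ctrl and 133, 145 and 135 in cKO-labelled libraries. Its fall was larger than those of the preceding enzymes, at -0.57 on the log2 scale (SE 0.0963) and an adjusted p of 7.6e-05, although the differences between genes were not tested.

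The ATP-yielding part of the pathway and lactate dehydrogenase included the largest falls, those of *Ldha* and *Pgk1*, while *Pkm* and *Eno1* fell less than *Slc2a1* and *Tpi1*. *Pgk1* (Entrez ID 18655, chromosome X, 106187100 to 106203699), phosphoglycerate kinase, which makes the first ATP, had 130.2, 186 and 168 in Ctrl and 88.1, 92.8 and 86.5 in cKO-labelled libraries. The mean of the cKO-labelled libraries was 0.552 of the Ctrl mean (-0.83 on the log2 scale, SE 0.105), at an adjusted p of 3.5e-06. *Eno1* (Entrez ID 13806, chromosome 4, 150236708 to 150248879), enolase 1, had 153, 184 and 157 in Ctrl and 129.9, 113 and 120.2 in cKO-labelled libraries, a difference of -0.44 on the log2 scale (SE 0.0869), at an adjusted p of 0.000342. *Pkm* (Entrez ID 18746, chromosome 9, 59656576 to 59679372), the pyruvate kinase gene from which the M1 and M2 isoforms are spliced, had 493, 692 and 584 in Ctrl and 408, 421 and 399 in cKO-labelled libraries. The difference was -0.51 on the log2 scale (SE 0.0959), at an adjusted p of 0.000275, and the row does not separate the isoforms. *Ldha* (Entrez ID 16828, chromosome 7, 46842274 to 46855627), the lactate dehydrogenase subunit that favours lactate formation, had 489, 709.8 and 595 in Ctrl and 292, 308 and 283 in cKO-labelled libraries. These groups lay farther apart than those of any other of the 10 genes, with a ratio of means of 0.492 and a 95% interval of the log2 fold change from -1.23 to -0.77, at an adjusted p of 2.65e-06. Per kilobase of annotated exon, the order of Ctrl levels was *Ldha* (181), *Pkm* (118), *Tpi1* (74.9), *Pgk1* (71.9), *Aldoa* (49.1), *Gpi1* (35.6), *Eno1* (30.6), *Pfkl* (14.2), *Hk2* (7.66) and *Slc2a1* (5.09). In cKO-labelled libraries *Ldha* (88.9) and *Pkm* (81.9) still led and *Hk2* (7.13) and *Slc2a1* (3.23) were still lowest. Among neighbours in that order, ranges over the Ctrl libraries overlapped for *Tpi1* and *Pgk1*, *Pgk1* and *Aldoa*, *Gpi1* and *Eno1*, and *Hk2* and *Slc2a1*, and within single libraries *Tpi1* and *Pgk1* changed places while the others kept their order in all 3.

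Some of these levels are shared with other loci. Of the 50-base windows in the longest coding transcript, 72.2% in *Eno1*, 68.0% in *Pgk1*, 34.4% in *Pkm*, 19.3% in *Gpi1*, 16.6% in *Ldha*, 13.5% in *Aldoa* and 7.51% in *Tpi1* also occur in a transcript of another annotated gene, so levels compared between genes are uncertain. *Slc2a1* and *Hk2* had no such window. *Gapdh*, the dehydrogenase between *Tpi1* and *Pgk1*, had 82.5% of its windows in other genes and only 42 to 98 reads per library. It had 9.19, 9.95 and 7.30 normalised reads in Ctrl and 4.15, 4.19 and 5.10 in cKO-labelled libraries (log2 fold change -0.84). The count may hold only part of what a complete assignment of its reads could give, which was not tested. Reads were counted without strand, and *Slc2a1*, *Tpi1*, *Pkm* and *Ldha* overlap other annotated genes.

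Scaling moved the size of the falls. When the recovered reads were divided by the total of each library, 6 of the 10 transcripts were called lower and 0 higher, beside 14.4% of all rows lower and 38.5% higher. *Gpi1*, *Pfkl* and *Aldoa* were no longer called, and *Hk2* changed sign (0.13, not called). The median over all rows moved from 0.01 to 0.19 under that scaling, and the median of the 10 transcripts relative to it was -0.47, against -0.50 with the deposited scaling.

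**Figure D2:**
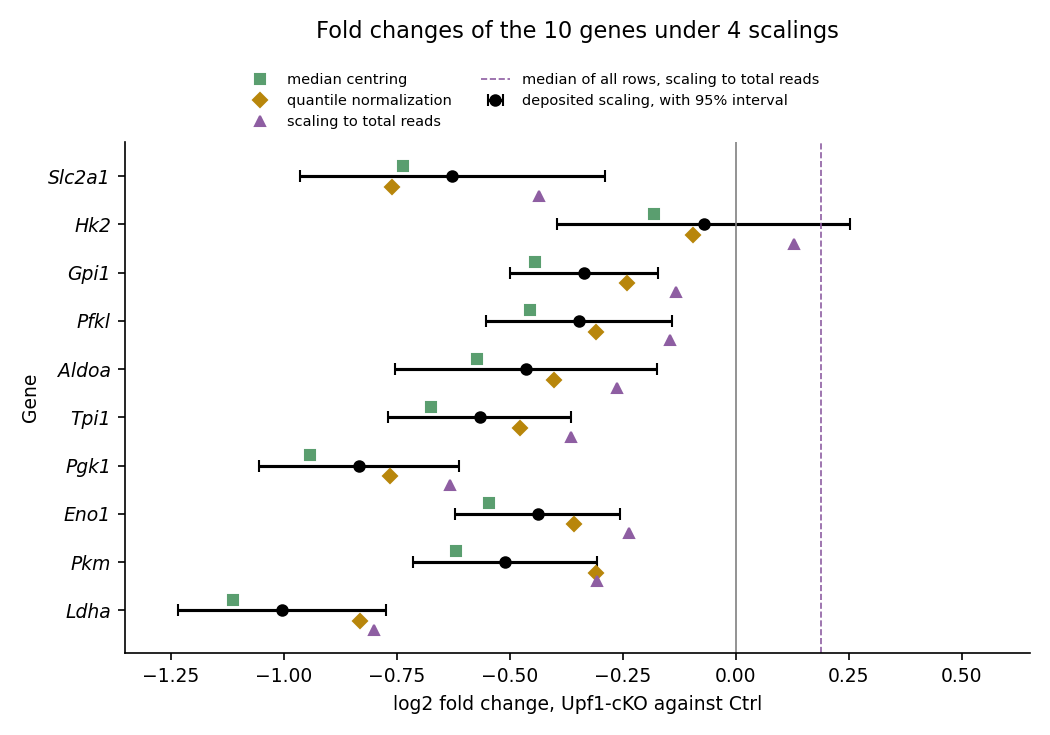
Log2 fold change of each of the 10 transcripts, cKO-labelled against Ctrl, under the deposited scaling (black, with the 95% interval), median centring, quantile normalization and scaling to total reads. The grey line is 0 and the dashed line the median of all rows (0.19) under scaling to total reads. Of all points, only that of *Hk2* under scaling to total reads (0.13) lies above 0.

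Other isoenzymes of the same steps included genes that rose. *Hk1*, the hexokinase expressed in most tissues, had 50.9, 54.5 and 53.8 in Ctrl and 71.3, 77.4 and 71.7 in cKO-labelled libraries, a rise with a log2 fold change of 0.46 and an adjusted p of 0.000201. *Hk3* rose from 2.92, 3.28 and 1.34 to between 9.24 and 10.2. This isoenzyme is known from myeloid cells. The summed level of the 12 neutrophil genes (at least 359) and *Lyz2* were also higher in cKO-labelled libraries, and *Itgam* lower, as given above. The relation to *Hk3* was not tested. Per kilobase, *Hk2* made up 52.0% ± 6.45 (SD, n = 3) of the 3 hexokinase transcripts in Ctrl and 38.7% ± 1.47 in cKO-labelled libraries, *Hk1* 43.1% ± 4.83 and 46.8% ± 1.89, and *Hk3* 4.81% ± 2.18 and 14.5% ± 0.928. Mean levels per kilobase in Ctrl and cKO-labelled libraries were 7.66 and 7.13 for *Hk2*, 6.22 and 8.61 for *Hk1*, and 0.683 and 2.66 for *Hk3*. The summed hexokinase level was 12.3, 15.9 and 15.6 per kilobase in Ctrl and 18.6, 18.6 and 18.0 in cKO-labelled libraries, so the groups did not overlap. Among phosphofructokinases the muscle type *Pfkm* rose by 0.35 (adjusted p 0.0201) and the platelet type *Pfkp* fell with *Pfkl* (log2 fold change -0.29, adjusted p 0.0112), and the share of *Pfkl* was 54.6% ± 2.74 in Ctrl and 47.3% ± 0.876 in cKO-labelled libraries. The call of *Pfkm* was lost under median centring, under quantile normalization and without Ctrl library 1 or cKO-labelled library 2 or 3, and that of *Pfkp* under scaling to total reads and without Ctrl library 3 or cKO-labelled library 3. *Slc2a3*, which encodes the high-affinity transporter GLUT3, had 32.3, 35.0 and 25.3 in Ctrl and 38.8, 42.2 and 39.8 in cKO-labelled libraries (log2 fold change 0.38, adjusted p 0.0102, not called without Ctrl library 3 or under median centring). *Slc2a1* and *Slc2a3* together had 9.36, 10.6 and 8.12 per kilobase in Ctrl and 7.79 to 9.59 in cKO-labelled libraries, which overlap, while the share of *Slc2a1* was 54.6% ± 2.38 and 36.5% ± 4.53. *Ldhb*, the other lactate dehydrogenase subunit, had only 0 to 14 reads per library.

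**Figure D3:**
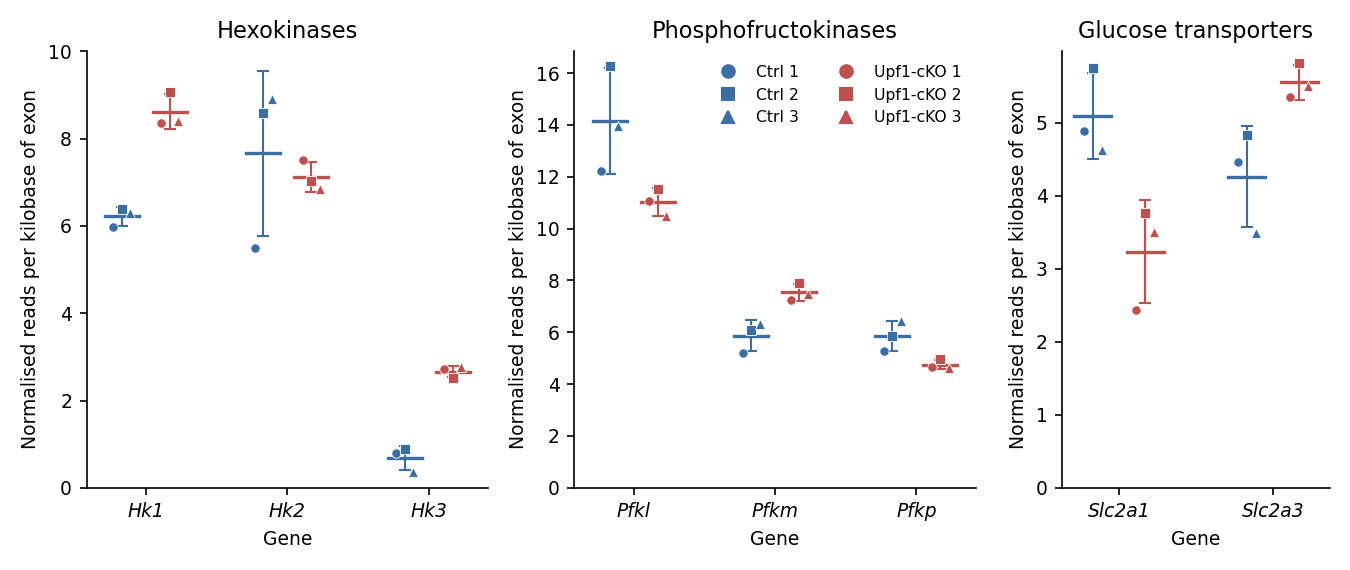
Normalised reads per kilobase of annotated exon for hexokinases, phosphofructokinases and glucose transporters by library, with Ctrl in blue and cKO-labelled in red. Bars are means with SD (n = 3 each). *Hk1* and *Hk3* were higher in cKO-labelled libraries and *Hk2* overlapped, and *Slc2a1* and *Slc2a3* moved in opposite directions.

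Ratios within a library do not depend on its scaling. Of 7 ratios formed, that of *Hk2* to *Hk1* was lower in cKO-labelled libraries by a log2 difference of -0.54, that of *Pfkl* to *Pfkm* and *Pfkp* by -0.42 and that of *Slc2a1* to *Slc2a3* by -1.07. The ratio of *Ldha* to *Pkm* differed by -0.49, with SDs of 0.0248 in Ctrl and 0.0247 in cKO-labelled libraries, so the difference exceeded the spread within either group. The ratio of *Pkm* to *Pgk1* was higher by 0.33. Groups did not overlap in these 5 ratios, and each reached the smallest value that an exact two-sided permutation test of 3 against 3 libraries can give, p = 0.1 (0.117 after adjustment over 7 ratios), so none could pass 0.05. *Aldoa* to *Aldoc* differed by -0.46 (exact permutation p = 0.2), and the ratio of *Ldha* to *Ldhb* rests on too few *Ldhb* reads to be given.

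Genes in the rest of the pathway were called in both directions. Of 103 genes with a row in 8 lists of neighbouring steps and regulators, 26 were called lower (25.2%) and 36 higher (35.0%), with a median log2 fold change of 0.06, beside 25.0% and 27.7% of all rows. Among 13 other glycolytic enzymes 3 were lower, *Gapdh*, *Pgam1* (-0.73) and *Pfkp*, and 5 were higher, which besides *Hk1*, *Hk3* and *Pfkm* included *Adpgk* (0.60), an ADP-dependent glucokinase. The transport list of 9 genes had 2 lower and 4 higher. *Slc16a1*, which encodes the lactate transporter MCT1, had 455, 467 and 438 in Ctrl and 252, 269 and 270 in cKO-labelled libraries (log2 fold change -0.78), and the groups did not overlap. Its relatives *Slc16a7* (1.38, at most 69 reads) and *Slc16a3* (0.58, at most 36 reads, not called by edgeR or DESeq2) and the urate transporter *Slc2a9* (0.92) were higher.

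In branches that leave the pathway, counts stand beside 25.0% of all rows lower and 27.7% higher. In the pentose phosphate pathway, which makes NADPH and ribose, 4 of 8 genes fell and 2 rose, the latter with 0 called by DESeq2 and 1 with the replicate number as a block. *Tkt*, transketolase, had 288, 342 and 286 in Ctrl and 185, 172 and 186 in cKO-labelled libraries (log2 fold change -0.75), and *Pgls* (-0.79), *Pgd* (-0.40) and *Taldo1* (-0.35) were lower as well. The last 2 were not called under scaling to total reads. At the entry of pyruvate into mitochondria 6 of 14 genes were lower and 1 higher, with 5 lower by DESeq2 and with the replicate block. Those that fell included *Pdha1* (-0.70), the E1 subunit of pyruvate dehydrogenase, *Pcx* (-0.96), pyruvate carboxylase, and *Pdk3* (-0.89), a kinase that inhibits pyruvate dehydrogenase. *Pdk2*, another such kinase, was higher (0.89, adjusted p 0.0248, a call that was lost in 5 of the 6 fits that left out 1 library) and *Pdk1* had a log2 fold change of 0.18 (adjusted p 0.155, but called higher at 0.38 under scaling to total reads and at 0.30 without Ctrl library 2).

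Genes that set the flux and turn it back were higher or not called. Of 10, 4 rose and 0 fell (limma, 0 lower at an unadjusted p below 0.05, and 0 lower with edgeR and with DESeq2), beside 27.7% of all rows higher and 25.0% lower. *Pck2*, mitochondrial phosphoenolpyruvate carboxykinase, had 99.8, 100.2 and 100.6 in Ctrl and 244, 216 and 235 in cKO-labelled libraries (log2 fold change 1.20). *Pfkfb2*, which makes and removes the phosphofructokinase activator fructose 2,6-bisphosphate, went from 17.8, 16.4 and 17.2 to 41.8, 39.9 and 38.7 (1.18). *Pfkfb4* (1.09) and *Txnip* (0.53), an inhibitor of glucose uptake, also rose.

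Of the known activators, *Myc* and *Hif1a* were not called with the deposited scaling, and *Arnt*, which encodes the partner of HIF1A in HIF1 and was added after its value was seen, was lower (-0.25, adjusted p 0.0277, not called under scaling to total reads). *Myc* had 119, 155 and 146 in Ctrl and 138, 181 and 139 in cKO-labelled libraries, which overlap (log2 fold change 0.12, adjusted p 0.402, but called higher at 0.32 and an adjusted p of 0.0320 under scaling to total reads), and *Hif1a* had 87.1, 93.7 and 99.4 and 87.2, 88.3 and 89.1 (-0.08, adjusted p 0.432). Of 24 regulators 8 were lower and 8 higher (33.3% each, beside 25.0% and 27.7% of all rows, with DESeq2 calling 8 lower and 6 higher). Among them were *Akt1* at -0.76, *Tsc1*, an inhibitor of mTORC1, at 0.82, *Mycn* at 0.83 (only 15 to 44 reads per library) and *Prkaa2*, an AMPK subunit, at 0.67. Of 13 HIF1 targets outside glycolysis 7 rose (53.8%, beside 27.7% of all rows, and 6 with the replicate number as a block). In that list 0 fell (limma, 0 lower at an unadjusted p below 0.05, and 0 lower with edgeR and with DESeq2), and its median was 0.50. *Vegfa*, an angiogenic factor, had 54.8, 59.4 and 70.9 in Ctrl and 118, 130.1 and 137 in cKO-labelled libraries (1.05), and *P4ha1*, a collagen prolyl hydroxylase, rose by 1.39. *Bhlhe40* (0.90) had at most 19 reads in any library, and *Ddit4* (1.86, adjusted p 0.0443) varied from 7.02 to 25.6 among Ctrl libraries. The call of *Ddit4* was lost in 5 of the 6 fits that left out 1 library, with the replicate block and under median centring.

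**Figure D4:**
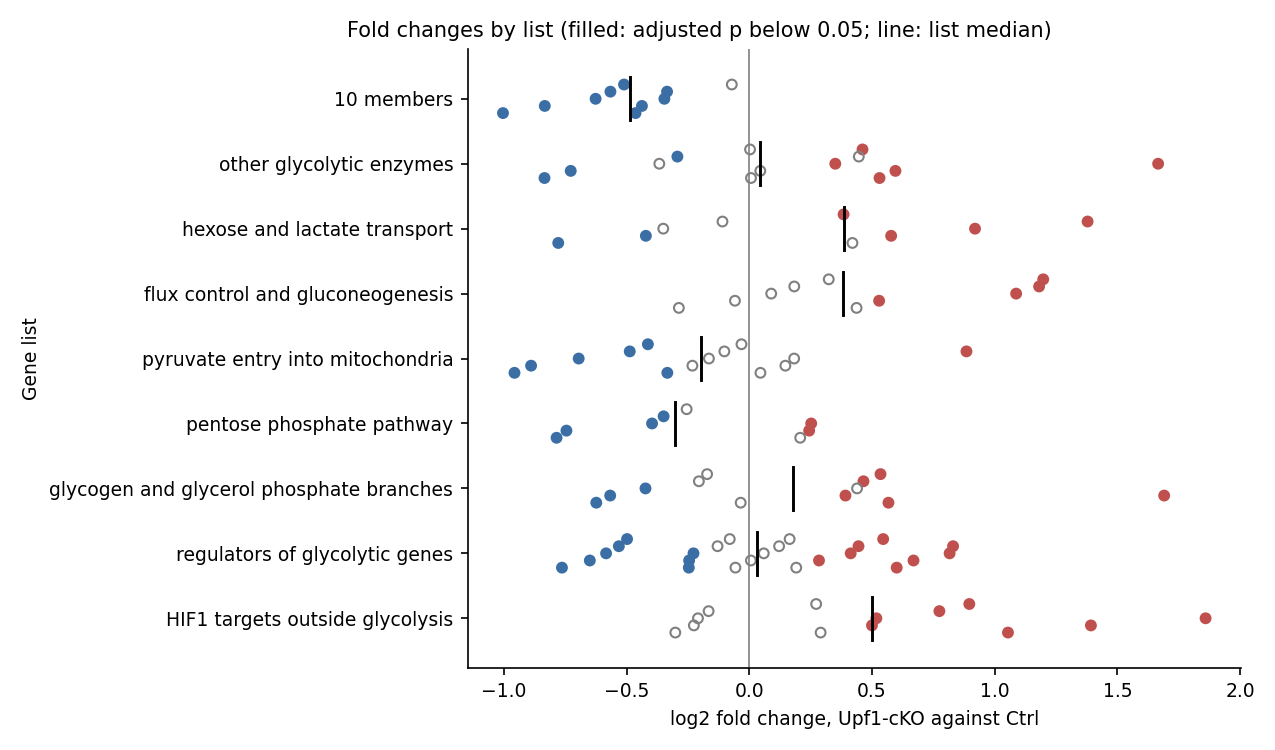
Log2 fold change, cKO-labelled against Ctrl, of each gene with a row in the list of 10 members and in 8 lists of the pathway and its regulators. Filled points passed an adjusted p of 0.05 (blue lower, red higher), open points did not, and black lines are list medians. The medians run from -0.49 for the 10 members to 0.50 for HIF1 targets outside glycolysis.

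Genes with the most similar pattern over the 6 libraries were sought among 5436 named rows outside the lists with a mean log2 value of at least 5, by Pearson's r with the mean of the standardised member values. The 5 highest were *Dazap1* (0.997), *Odc1* (0.996), *Gmps* (0.995), *Kars* (0.995) and *Gart* (0.994). *Odc1* encodes ornithine decarboxylase of polyamine synthesis, *Gmps* and *Gart* act in purine synthesis, and *Kars* is lysyl-tRNA synthetase. *Odc1* had 127, 204 and 153 in Ctrl and 95.4, 105.8 and 96.5 in cKO-labelled libraries, with the same high Ctrl library 2 and low Ctrl library 1 as most members. The 6 points share libraries and the difference between groups, and 4.30% of the candidates had an r above 0.95.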

How the data were processed

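Early large pre-B cells of Ctrl and Upf1-cKO mice were measured by RNA sequencing, with 3 libraries per group as labelled. Per the methods and labels, reads were trimmed with cutadapt 4.0, aligned to mm10 with HISAT2 without use of strand, counted with featureCounts 2.0.1 and analysed with limma 3.48.0. The deposited signal was linear, and its values show it to be reads plus 0.5 per 1e6 reads of effective library size, and whole reads (each value within 0.03 of an odd multiple of its smallest step) were recovered for 100% of values. RefSeq for GRCm38.p6 named 13008 of 13426 rows, and GENCODE M21 gave exon lengths.

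On log2(value + 1), a scale that understates changes of low genes, fold changes were tested with limma 3.58.1 (R 4.3.3), with trend and robust estimation and two-sided Benjamini-Hochberg adjustment over all rows. On the recovered reads, edgeR 4.0.16 called 3343 rows lower and 3651 higher, and DESeq2 1.42.0 was also run. The limma fit was tested on simulated data. Pairs of libraries in a group gave a chi-square of 4.39 to 22.0 for each degree of freedom, so each pair differed by more than counting noise. This cannot tell whether libraries came from the same RNA or the same mouse. At most 4 called genes per list were named, by absolute fold change, beside 11 fixed genes. Members and lists were chosen with earlier results of these data known. A marker gene of the B lineage list is not reported here.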

Additional observations from a re-analysis of the deposited data

How the results depend on the processing

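The 9 called transcripts kept their direction under all alternatives and their call without each library in turn (largest adjusted p 0.0410), while *Hk2* ranged from -0.29 to 0.051 and was called lower only without Ctrl replicate 1. Scaling to total reads gave log2 fold changes of 0.13 for *Hk2*, -0.13 for *Gpi1* (adjusted p 0.183), -0.14 for *Pfkl* (0.235) and -0.26 for *Aldoa* (0.0700), a median of -0.28 over the 10 transcripts, 16 lower genes in the 8 lists in place of 26, and 0.12 for *Hif1a*. The median over all rows moves by construction there. Without trend and robust estimation *Pfkl* had an adjusted p of 0.0501 (log2 fold change -0.35), for which the cause was not tested. *Myc* ranged from -0.0056 (without Upf1-cKO replicate 2) to 0.20 over the fits without 1 library and was called higher under scaling to total reads (0.32, adjusted p 0.0320). Without each library, 9 to 10 of the 10 transcripts and 20 to 26 genes of the lists were lower, and 28 to 34 of the lists higher. Libraries with the same replicate number showed little shared deviation from their group means (correlations 0.082, -0.030 and -0.021). This does not show whether they were handled as pairs. Column headers carry consecutive numbers for the Ctrl and cKO-labelled library of each replicate number, and the meaning of these is not stated. With the replicate block 9 transcripts were lower, the log2 fold change of *Pgk1* was -0.83 and 6989 rows were called in place of 7076. At 87 to 199 reads per library *Slc2a1* was the least precisely counted of the 10.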

Other observations

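Among storage branches, of 12 genes of glycogen and glycerol phosphate metabolism 3 were lower (25.0%) and 5 higher (41.7%) in cKO-labelled libraries, beside 25.0% and 27.7% of all rows. *Pygl*, the liver-type glycogen phosphorylase, had 5.15, 5.20 and 4.62 normalised reads in Ctrl and 22.4, 17.4 and 15.8 in cKO-labelled libraries (log2 fold change 1.69, limma). The summed level of neutrophil genes was also high there (at least 359), after a sort that excluded CD11b+ cells. *Lyz2* was higher (0.76) and *Itgam* (CD11b) lower (-0.42, groups overlapping, not called under scaling to total reads). The part of such RNA was not tested. *Pgm2* (0.57) was higher, and *Ugp2* (-0.57), which makes UDP-glucose, and *Gpd1l* (-0.62), a glycerol 3-phosphate dehydrogenase, were lower.

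Among the 24 regulators, the following were chosen after their values were seen. The HIF prolyl hydroxylase genes *Egln1* (88.9, 92.6 and 100.5 in Ctrl, 59.8, 67.4 and 60.0 in cKO-labelled libraries) and *Egln2* (99.0, 101.7 and 103 against 64.6, 64.0 and 63.9) were lower, with log2 fold changes of -0.58 and -0.65, whereas the third such gene, *Egln3*, was higher at a low level (2.07, 2.07 and 1.94 against 2.98, 2.93 and 4.51, log2 fold change 0.55, adjusted p 0.0365, not called under median centring or quantile normalization). *Hif1an*, the asparaginyl hydroxylase of HIF, was lower (-0.25, adjusted p 0.0141, not called under scaling to total reads). *Vhl*, the ubiquitin ligase subunit that recognises hydroxylated HIF1, was higher (20.2, 18.3 and 17.8 against 29.5, 26.9 and 30.6, log2 fold change 0.60).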
